A study of Mus musculus with 4 samples.

Results

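The nuclear genes of oxidative phosphorylation were followed in mouse diplotene spermatocytes with and without TDRD6. They were chosen by symbol: names that start with Nduf and a subunit letter and number, Uqc, Cox4 to Cox8 or Atp5, and Sdha to Sdhd, with 8 names that end in -ps left out. This took 92 gene entries, of which 88 had a row of their own among the 37718 gene rows deposited, 3 (Ndufb2, Ndufb8 and Atp5o) shared a row with a neighbouring gene, and 1 had no row. The 88 genes belonged to complex I (38), complex II (4), complex III (11), complex IV (19) and complex V (16), and 373 of 207562 deposited introns were theirs. The symbols also took in 4 genes that are no subunits, the complex III assembly factors Uqcc1, Uqcc2 and Uqcc3 and the ATP synthase coupling factor gene Atp5s, and 4 genes annotated as pseudogenes, Ndufa11b, Ndufb4c, Ndufs6b and Cox6c2.

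RNA was measured in 2 Tdrd6+/- and 2 Tdrd6-/- samples of testis at 20 dpp (days post partum), and each sample was a pool of at least 4 mice. All 4 samples were hCD4+ cells taken by magnetic sorting, from mice in which human CD4 is made under the endogenous Tdrd6 promoter. The controls are heterozygous and so also carry a disrupted Tdrd6 allele. The sort enriches diplotene cells and does not purify them, and in such bulk RNA fewer cells of a type and less RNA per cell cannot be told apart. The study asked whether loss of TDRD6, a tudor-domain protein of germ cell granules, disturbs the maturation of the spliceosome and with it the transcriptome.

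Oxidative phosphorylation takes place in the inner mitochondrial membrane. Complexes I and II feed electrons from NADH and succinate to ubiquinone, complex III passes them to cytochrome c, complex IV passes them to oxygen, and complex V, the ATP synthase, uses the proton gradient to make ATP. Most subunits are encoded in the nucleus, complex II entirely so, and germ cells of the testis replace several complex IV subunits and cytochrome c by isoforms of their own.

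Promoters of these genes are textbook targets of NRF1 and of ETS factors such as GABP. Letters read by such factors were therefore sought on both strands of the RefSeq promoters (GRCm38.p6, 250 bases before to 50 after each start), where 71 member genes with 76 promoters were found. The NRF1 letters, GCGC and TGCGC with any base between them, stood in 25% of the member promoters, 8.92% of the promoters of all genes tested for expression and 4.603% of all promoters. The ETS letters CCGGAAG stood in 21.05%, 15.67% and 8.858%, the cyclic AMP response element TGACGTCA in 5.263%, 2.886% and 1.79%, and the YY1 letters AAGATGGCG in 9.211%, 2.591% and 1.403%. The YY1 letters were shortened after the matches had been seen: with 1 more G at the 3′ end, as first searched, their shares were 6.579%, 1.721% and 0.8523%. Matches to different motifs shared no base, and a match is a stretch of letters, not a measured binding site. The following windows, 5′ to 3′ on the strand of the gene, show a match before the start for a member of each complex and the response element of Ndufa11, with the matched letters in capitals (on the opposite strand an ETS match reads CTTCCGG and an NRF1 match GCGCA, any base and GCGC, as for Ndufs5, Sdha and Uqcc2).
Ndufs5, complex I, NRF1, chr4:123718265-123718294, minus strand: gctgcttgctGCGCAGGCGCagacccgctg
Ndufa11, complex I, response element, chr17:56717593-56717622, plus strand: tttacctttccTGACGTCAcgggcgtctct
Sdha, complex II, NRF1, chr13:74350319-74350348, minus strand: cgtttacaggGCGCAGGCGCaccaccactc
Uqcc2, complex III, NRF1, chr17:27133920-27133949, minus strand: gcgccttagtGCGCACGCGCcctctgcggt
Cox6a1, complex IV, NRF1, chr5:115349101-115349130, minus strand: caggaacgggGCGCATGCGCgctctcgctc
Atp5e, complex V, ETS, chr2:174464185-174464214, minus strand: tacggccacagCTTCCGGtagccgctcggc

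The labels were checked on Tdrd6 itself, which had 1269 and 1412 CPM (library-scaled counts, normalized by TMM) in Tdrd6+/- cells against 11.4 and 12.5 CPM in Tdrd6-/- cells (log2 fold change -6.81, standard error (SE) 0.17, adjusted p = 8.4e-18 by edgeR's quasi-likelihood test). Between 43778449 and 47221554 fragments were tallied per sample, and 26454326 to 31388750 were counted on genes. The second Tdrd6-/- sample stood apart, with 21.9% of its tallied fragments on introns against 27.1% to 31.0% in the other samples. Late prophase markers were abundant in all samples, and without Tdrd6 the other 8 summed to 8199 and 8338 CPM in Tdrd6+/- cells against 8648 and 9734 in Tdrd6-/- cells. Of these 8, Sycp1 and Sycp2 were called higher and Piwil1 lower in Tdrd6-/- cells (adjusted p = 0.047, 0.09997 and 0.077 by edgeR). Summed markers of round spermatids (7 genes) were at 11.5 and 16.0 CPM in the Tdrd6+/- and 25.9 and 23.2 CPM in the Tdrd6-/- samples, with Prm1 at 0 in 3 of the 4 samples, and Spaca1 and Acrv1 passed the test. Sertoli markers (6 genes, 3 of them higher in both Tdrd6-/- samples) summed to 72.4 and 56.8 against 74.4 and 86.8 CPM. Spermatogonial markers (7 genes, 6 of them higher in both Tdrd6-/- samples) summed to 15.5 and 17.3 against 20.0 and 21.1. Leydig markers (5 genes) summed to 8.40 to 11.5 CPM.

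Per kb of exon, Cox7b2 and Cox8c, testis isoforms of complex IV subunits, were the highest of the nuclear subunit genes in these cells. Levels are given as CPM per kb of annotated exon, so that genes of different length can be compared. The ranking depends on this length. Without it, Atp5b had 698 to 857 CPM, above Cox7b2 (162 to 222) and Cox8c (116 to 147). Of the 88 genes, 84 had at least 10 counts in total and 4 did not: the pseudogene Ndufb4c, the lung isoform Cox4i2 and the heart and muscle isoforms Cox6a2 and Cox8b. The median level was 32.6 CPM per kb, 9 genes were at 100 or more, and 5 with at least 10 counts were under 1. The highest were Cox7b2 (334 ± 51 CPM per kb, SD, n = 4) and Cox8c (284 ± 28), followed by Cox4i1 (208 ± 31) and Uqcc2 (207 ± 34). Cox7b2 ran from 298 to 409 and Cox8c from 254 to 320, so their ranges overlapped, as did those of Cox4i1 (178 to 252) and Uqcc2 (168 to 250).

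**Figure D1:**
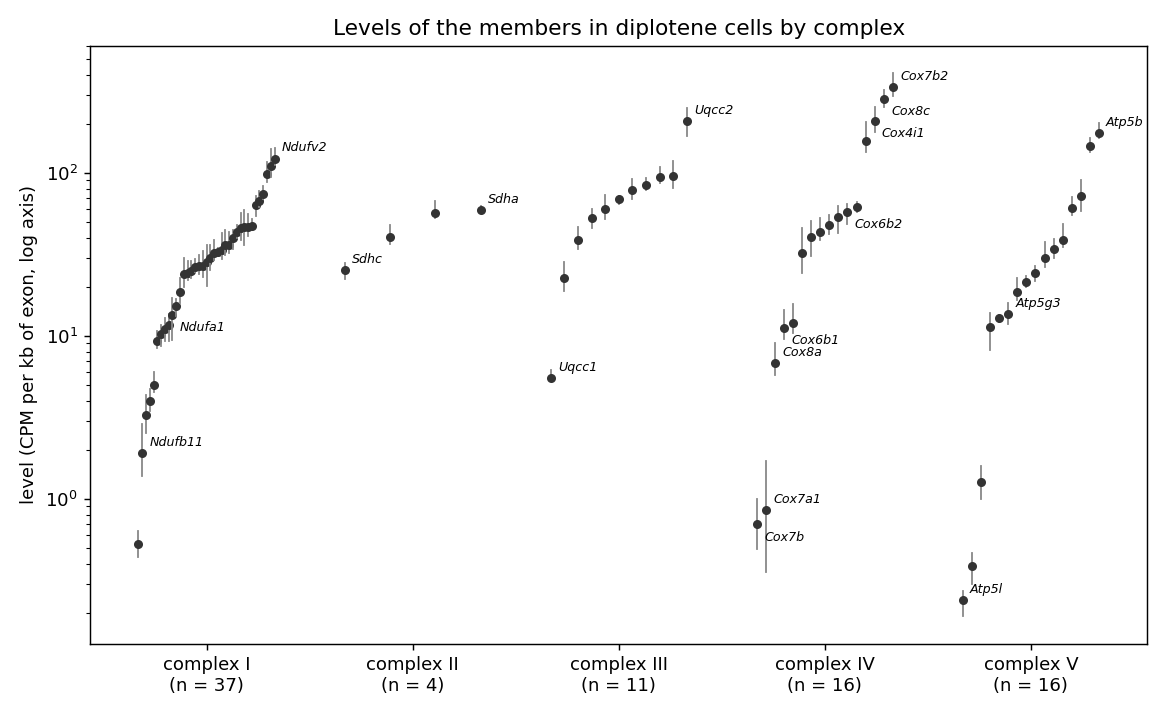
Level of each of the 84 members with at least 10 counts, as CPM per kb of exon on a log axis, sorted within each complex. Points are means and vertical lines run from the lowest to the highest of the 4 samples, and Cox7b2 and Cox8c of complex IV stand at the top with 334 and 284 CPM per kb.

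In complex I, the entry point for NADH, the 7 nuclear core subunits had a median of 26.6 CPM per kb, from Ndufs7 (9.29 ± 1.03) to Ndufv2 (122 ± 13). Of the other 31 members of complex I, those with at least 10 counts had a median of 29.2. Ndufa2, an accessory subunit, reached 111 ± 21 CPM per kb. The lowest with at least 10 counts was the pseudogene Ndufa11b, at 0.63, 0.593, 0.447 and 0.442 CPM per kb and 6 or 7 counts a sample.

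All 4 subunits of complex II, succinate dehydrogenase, were measured, with means of 25.2 to 58.9 CPM per kb. The flavoprotein Sdha stood at 59.1 and 62.9 CPM per kb in Tdrd6+/- cells against 56.7 and 57.0 in Tdrd6-/- cells. The iron-sulfur subunit Sdhb was at 36.8, 37.9, 37.7 and 47.9, in the same sample order. The membrane anchors Sdhc and Sdhd were at 22.4, 24.5, 25.9 and 27.9, and at 53.1, 52.8, 53.2 and 67.5. All except Sdha had their highest value in the second Tdrd6-/- sample.

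In complex III, the core proteins Uqcrc1 and Uqcrc2 and the Rieske iron-sulfur protein Uqcrfs1 lay close together, between 69.2 and 93.8 CPM per kb, and the 5 small subunits between 38.8 (Uqcr11) and 95.6 (Uqcr10). Its assembly factors spread much further per kb, from Uqcc1 at 5.49 ± 0.43 to Uqcc2 at 207 ± 34, with Uqcc3 at 22.5 ± 4.2. This spread depends on length, since Uqcc1 has 6044 bp of annotated exon and Uqcc2 has 837 bp. Without the length correction Uqcc3 was the lowest of these genes, at 15.4 to 23.3 CPM. Uqcc1 then had 31.7 to 37.1 CPM and Uqcc2 141 to 209 CPM.

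In complex V, the catalytic F1 subunits Atp5b (176 ± 18 CPM per kb) and Atp5a1 (147 ± 13) were highest, and the small F1 subunit Atp5d was at 21.5 ± 1.5. The 3 genes for the same c-ring protein differed widely, with Atp5g3 at 13.6 ± 2.0, Atp5g1 at 1.26 ± 0.28 and Atp5g2 at 0.389 ± 0.070. In the annotation Atp5g1 has 10 and Atp5g2 has 2 near-identical copies and Atp5g3 none. Per kb, the membrane subunit gene Atp5l was lowest, at 0.240 ± 0.038, over 6443 bp of annotated exon. Without the length correction it had 1.22 to 1.75 CPM, above Atp5g2 with 0.503 to 0.781 CPM. Atp5l has 10 near-identical copies in the annotation. Such copies, with at least 95% identity over at least 100 bp to another gene, were found for 26 of the 88 genes, and how the counting divided reads among them is not given in the sources used here.

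By complex, the shares of the summed per-kb level were 30.1% ± 0.42 for complex I, 4.22% ± 0.17 for II, 18.8% ± 0.37 for III, 31.5% ± 0.56 for IV and 15.4% ± 0.33 for V (SD, n = 4). These shares cover the 88 genes as grouped by symbol, not subunits only. That of complex III includes the assembly factors Uqcc1, Uqcc2 and Uqcc3, with Uqcc2 alone at 207 CPM per kb. Complex II had 4.37% and 4.35% in the Tdrd6+/- and 4.19% and 3.99% in the Tdrd6-/- samples, the groups not overlapping. Complex IV had 31.4% and 32.2% against 30.8% and 31.4%. None of the 5 shares passed the exact two-sided permutation test (p = 0.33 to 1, adjusted p = 0.83 to 1), for which 0.33 is the smallest p that 2 samples against 2 can give. The shares depend on the length used, since complex IV held 19.1% and complex V 26.7% without a length correction.

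Testis isoforms prevailed over their somatic counterparts in all 4 samples. Cox7b2 (chr5:71442824-71548205 of mm10, minus strand) exceeded Cox7b, its X-linked counterpart, 442-fold and 504-fold in the Tdrd6+/- and 655-fold and 408-fold in the Tdrd6-/- samples. Cox7b itself had only 19 to 39 counts a sample and has 2 near-identical pseudogene copies, while Cox7b2 has none. How reads were divided between copies is not given in the sources used here. Cox8c (chr12:102899316-102900526, plus strand) exceeded Cox8a 44.3-fold and 52.6-fold against 44.0-fold and 30.7-fold. Cox6b2 (chr7:4751792-4753094, minus strand) exceeded Cox6b1 6.53-fold and 6.67-fold against 4.38-fold and 3.76-fold. In log2 terms the Tdrd6-/- minus Tdrd6+/- difference was 0.13 for the Cox7b2 ratio (p = 1), -0.39 for the Cox8c ratio and -0.70 for the Cox6b2 ratio (p = 0.33 for both, exact two-sided permutation test, 0.33 being the smallest possible). The Cox8c and Cox6b2 ratios were lower in both Tdrd6-/- samples than in both Tdrd6+/- samples. These differences were formed from 8 pairs, 5 of which had counts for a ratio in every sample.

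Of 5 genes known as isoforms of other tissues or conditions, Ndufa4l2 was higher than its counterpart and the other 4 were lower. Cox4i2 had 3 counts over all samples and was 6494-fold lower than Cox4i1 per kb (95% counting interval 2222 to 31493). Cox6a2, with 2 counts, was 1938-fold lower than Cox6a1 (536 to 16007). Cox8b had 0 counts and was at least 97.1-fold lower than Cox8a, with the floor at 3 counts over the 4 samples. These intervals cover counting error only. Ndufa4l2, known from hypoxia, was higher than Ndufa4, which is grouped here with complex I by its name but is now regarded as a complex IV subunit, 3.28-fold and 5.34-fold in the Tdrd6+/- and 3.44-fold and 2.81-fold in the Tdrd6-/- samples (log2 difference -0.43, p = 0.67, exact permutation test). The mean log2 ratio was 1.85, and 0.49 with the median length of basic transcripts. The muscle isoform Cox7a1 stood at 0.00264 and 0.00385 of the Cox7a2 level in the Tdrd6+/- and 0.00558 and 0.00826 in the Tdrd6-/- samples (log2 difference 1.09, p = 0.33, exact permutation test). Outside the members, cytochrome c followed the same division, with the testis gene Cyct at 203 CPM per kb and the somatic gene Cycs at 0.813. Near-identical copies were sought for members only, so not for Cyct or Cycs.

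**Figure D2:**
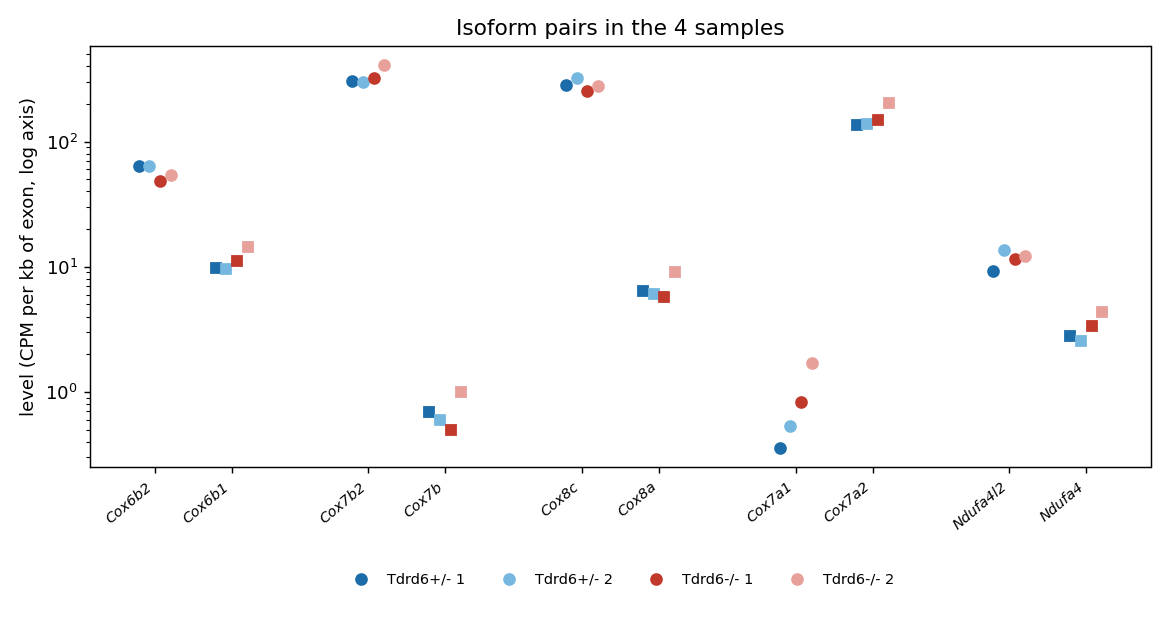
Levels of both genes of 5 isoform pairs in each sample, as CPM per kb of exon on a log axis, with circles for the first and squares for the second gene of a pair. Cox7b2, Cox8c and Cox6b2 lie above Cox7b, Cox8a and Cox6b1 in every sample, while Cox7a1 lies below Cox7a2.

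Chromosome X carries 3 members, which were low. Ndufa1 was at 13.4 ± 3.2 CPM per kb, Ndufb11 at 1.90 ± 0.66 and Cox7b at 0.696 ± 0.221, against a median of 37.5 for the 78 protein-coding members on other chromosomes with at least 10 counts. Among all protein-coding genes with at least 10 counts, the median was 0.468 on X (604 genes) and 2.46 elsewhere (14214 genes). Only 3 members make up this comparison, which is given without a test.

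The next question was whether loss of TDRD6 changed the amount of these transcripts. No single member passed the test, yet most had a higher mean in Tdrd6-/- than in Tdrd6+/- cells, with a typical log2 fold change near 0.2, and the second Tdrd6-/- sample was the highest of the 4 for most of them. Of the 83 members tested, 77 had a positive and 6 a negative log2 fold change, while 51.7% of the 16555 genes tested were positive. The median was 0.23 (quartiles 0.16 and 0.30) beside 0.01 over all genes. By edgeR's quasi-likelihood test at a false discovery rate of 0.1, 0 members were called higher (1.02% of all genes) and 0 lower (3.78% of all genes, 4.8% in either direction). DESeq2 also called 0 members, while leaving out single samples changed which members were called. Without adjustment, 12 members had p under 0.05, 11 higher and 1 lower, beside 14% of all genes (4.58% higher).

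Both Tdrd6-/- samples lay above both Tdrd6+/- samples for 48 of the 83 members (20.1% of all genes) and below for 4 (23.4% of all genes). The second Tdrd6-/- sample was the highest of the 4 for 76 members. The median deviation of the members from their own mean was -0.12 and -0.10 in the Tdrd6+/- samples, -0.03 in the first and 0.26 in the second Tdrd6-/- sample, on the log2 scale. Without the second Tdrd6-/- sample the median log2 fold change was 0.08, with 65 of 83 members positive, and without the first it was 0.36, with 79 positive. Summed over the members, the level was 6506 and 6693 CPM in Tdrd6+/- cells against 6839 and 8086 CPM in Tdrd6-/- cells. The same sample had the lowest share of intron fragments. The summed markers of round spermatids, spermatogonia and Sertoli cells and of late prophase without Tdrd6 were higher in both Tdrd6-/- samples. Gene by gene, this held for 4 of 7 round spermatid, 6 of 7 spermatogonial, 3 of 6 Sertoli and 4 of 8 late prophase markers. The part of the intron share and of these markers in the result was not tested.

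**Figure D3:**
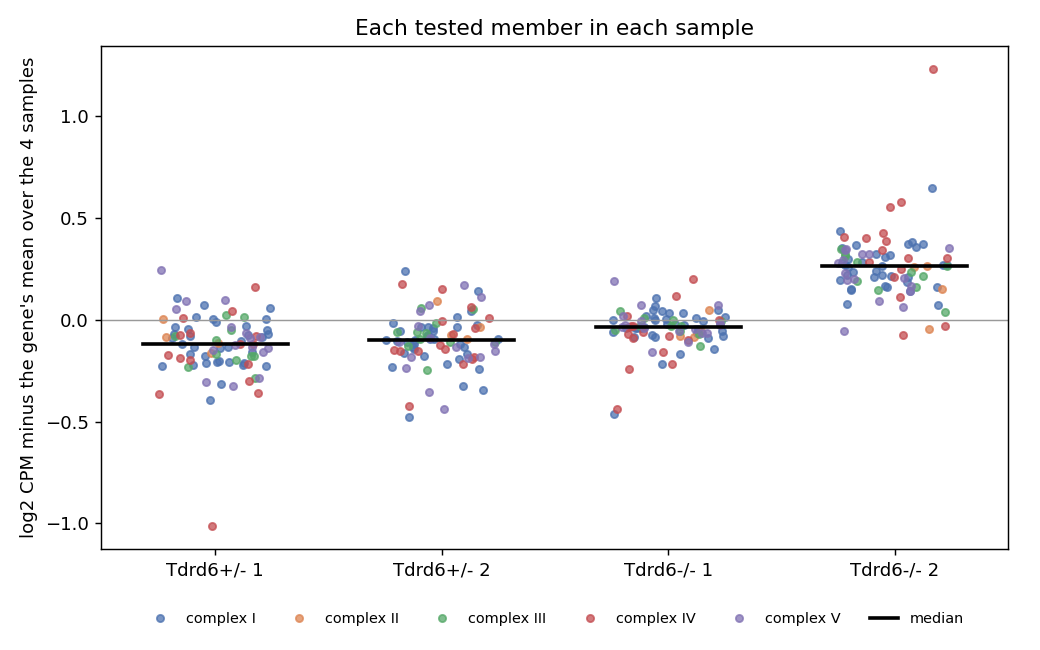
Deviation of each of the 83 tested members from its own mean over the 4 samples, in log2 CPM, with points coloured by complex and horizontal bars at the median. The bars lie at -0.12, -0.10, -0.03 and 0.26, and the second Tdrd6-/- sample is the highest of the 4 for 76 members.

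Complex by complex, the medians lay between 0.19 and 0.27. The median log2 fold change was 0.22 in complex I (35 of 36 positive), 0.19 in complex II (3 of 4), 0.23 in complex III (11 of 11), 0.27 in complex IV (14 of 16) and 0.22 in complex V (14 of 16). Within complex III, the small subunits had a median of 0.29 and the core and Rieske proteins one of 0.08. Within complex V, the stator and membrane subunits had a median of 0.29 and the F1 subunits one of 0.18. The differences between these groups were not tested.

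The smallest adjusted p among the members belonged to Atp5k, a small membrane subunit of the ATP synthase. It was at 58.4 and 64.9 CPM per kb in Tdrd6+/- cells against 74.9 and 90.8 in Tdrd6-/- cells (log2 fold change 0.43, SE 0.15, adjusted p = 0.17 by edgeR). Cox7a1 had the largest positive value, 1.47 (SE 0.56, adjusted p = 0.19), on only 5 and 8 against 14 and 29 counts. Atp5g1, a c-ring gene, followed with 0.55 (SE 0.23, adjusted p = 0.27) on 129 and 144 against 220 and 249 counts. Ndufa4 had 0.51 (SE 0.26, adjusted p = 0.38) on 102 and 98 against 146 and 191 counts. In all 4 genes both Tdrd6-/- samples were above both Tdrd6+/- samples, as in 20.1% of all genes. The 4 were picked by small p or large fold change, so this adds no support.

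The largest negative values included the testis isoforms Cox6b2 and Cox8c of complex IV. Cox6b2 was at 64.1 and 63.5 CPM per kb in Tdrd6+/- cells against 48.5 and 54.4 in Tdrd6-/- cells (log2 fold change -0.31, SE 0.14, adjusted p = 0.30). Cox8c had 284 and 320 against 254 and 278 CPM per kb (-0.19, SE 0.13, adjusted p = 0.60). Atp5d had 22.3 and 23.3 against 19.9 and 20.7 CPM per kb (-0.17, SE 0.15, adjusted p = 0.70). These genes and Sdha (-0.10) are the 4 members for which both Tdrd6-/- samples were below both Tdrd6+/- samples among those tested. The third testis isoform, Cox7b2, had 306 and 298 against 324 and 409 CPM per kb (0.28, SE 0.14, adjusted p = 0.36). Ndufv2, Uqcc2 and Atp5b, the highest members of complexes I, III and V per kb of exon, had log2 fold changes of 0.19, 0.30 and 0.18.

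Genes of other large protein machines were set beside the members. Cytosolic ribosomal protein genes had a median log2 fold change of 0.25 (63 of 67 positive, 0 called) and proteasome subunit genes one of 0.19 (30 of 34, 0 called). The median of the members thus lay between those of these lists, and the differences were not tested. The 4 protein genes of the mitochondrial genome that could be tested were all negative, with a median of -0.47, and 2 were called lower. Assembly factors of the complexes, 46 genes, had a median of -0.03 with 21 positive and 0 called. Regulators of mitochondrial biogenesis, 10 genes tested, had a median of -0.10 with 2 positive and 0 called. Among them were genes of factors named above, Nrf1 (-0.06), Gabpa (-0.13) and Gabpb1 (-0.47) for GABP, and Yy1 (-0.24). Of the 4 electron carriers 2 were positive, with 0 called. Of 3 further genes that the symbols did not take (Ndufab1, Atpif1 and Usmg5) 2 were positive, with 0 called.

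Intron fragments give a second reading of the same genes, since a fragment on an intron can stem from RNA that is not fully spliced. Intron counts were summed per gene and tested for 80 members, 3 of them from the shared rows, among 15025 genes. As for the gene counts, most members had a higher mean in Tdrd6-/- cells, but the 2 that passed the test were lower. The median log2 fold change was 0.31 (68 of 80 positive), beside 0.07 over all genes, of which 57% were positive. By edgeR's quasi-likelihood test 0 members were called higher (0.173% of all genes) and 2 lower (1.25%, 1.42% in either direction). Without adjustment 21 members had p under 0.05, 17 higher and 4 lower, beside 12.8% of all genes (5.37% higher). Both Tdrd6-/- samples were above both Tdrd6+/- samples for 34 members (22.1% of all genes) and below for 6 (21.4%). Without the second Tdrd6-/- sample the median was 0.054, with 50 of 82 members positive, and without the first it was 0.53, with 70 of 81 positive and 21 called higher, where 474 of all genes were called higher.

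Cox7b2 had the strongest intron result. Its 2 introns held 10792 and 6937 counts in Tdrd6+/- cells against 5533 and 3719 in Tdrd6-/- cells, or 854 and 573 against 409 and 364 intron CPM (log2 fold change -0.89, SE 0.22, adjusted p = 0.027 by edgeR). Both Tdrd6-/- samples were below both Tdrd6+/- samples, while its gene counts were above in both. For each 100 counts on the gene, the introns had 249 and 154 counts in the Tdrd6+/- and 99.5 and 52.4 in the Tdrd6-/- samples. The annotation places no other gene within Cox7b2. The call was lost without the first Tdrd6+/- sample and without the second Tdrd6-/- sample, where 4 and 39 of all genes were called lower.

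Atp5s, the coupling factor gene (chr12:69724950-69744660, plus strand), was the other. Its 4 introns had 1947 and 1752 counts in the Tdrd6+/- and 1510 and 752 in the Tdrd6-/- samples (log2 fold change -0.69, SE 0.21, adjusted p = 0.099 by edgeR). Its gene counts did not pass the test (log2 fold change 0.02, SE 0.16, adjusted p = 0.98). The introns had 298 and 234 counts per 100 gene counts against 189 and 86.1. Both samples of Tdrd6-/- were lower, and the second the lowest by far. At a false discovery rate of 0.05, with upper-quartile normalization, and without either Tdrd6+/- sample or without the second Tdrd6-/- sample, Atp5s was not called.

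Longer introns went with lower fold changes of intron counts. The members with up to 10 kb (10000 bp) of intron had a median log2 fold change of 0.36 (57 genes, 51 positive), those with 10000 to 30000 bp one of 0.21 (16 genes, 13 positive), and the 4 members with more, Ndufa10, Uqcc1, Ndufs4 and Cox7b2, one of -0.40 with 1 positive. Ndufs4, an accessory subunit of complex I with 97756 bp of intron, had 3048 and 2512 counts in the Tdrd6+/- and 2535 and 1679 in the Tdrd6-/- samples (log2 fold change -0.35, SE 0.21, adjusted p = 0.48). Uqcc1, with 77373 bp, had 709 and 632 against 579 and 379 (-0.44, SE 0.22, adjusted p = 0.39). Over all genes the medians in the same classes were 0.25, 0.06 and -0.08, so the order was not particular to the members. Across genes, which are not independent replicates and share the 4 samples, Spearman's rho of log2 fold change and intron length was -0.46 over 77 members and -0.37 over 14006 genes. The classes above 10000 bp hold only 16 and 4 members.

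**Figure D4:**
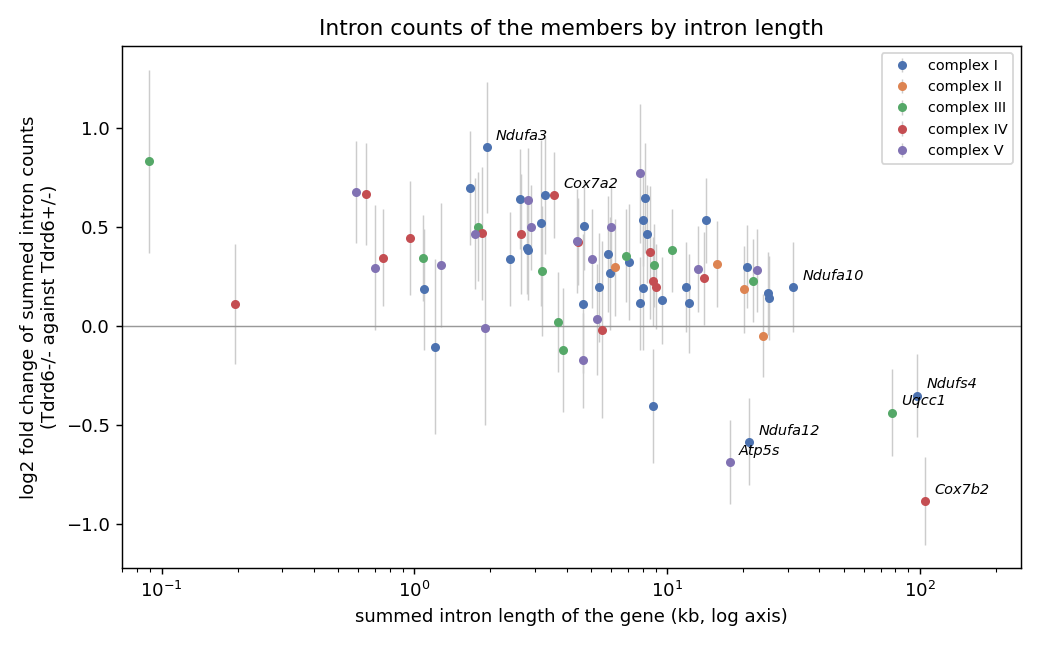
Log2 fold change of summed intron counts, Tdrd6-/- against Tdrd6+/-, for 77 members with a position in the annotation, against the summed intron length of the gene on a log axis. Points are coloured by complex and bars are 1 SE. Cox7b2, with 104840 bp of intron, lies at -0.89.

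Of the 77 members tested by both measures, 60 were positive in gene and intron counts, 11 were positive in gene and negative in intron counts, 5 the reverse and 1 negative in both. Cox7a2 had the smallest p among members with a higher intron count, with 662 and 759 against 873 and 1207 counts (log2 fold change 0.66, SE 0.22, adjusted p = 0.13). Per 100 gene counts its introns had 19.8 and 20.7 against 19.7 and 19.5 counts. Over the 77 members the median was 21.1 and 18.8 intron counts per 100 gene counts in Tdrd6+/- cells against 17.5 and 15.7 in Tdrd6-/- cells, and the second Tdrd6-/- sample was lowest for 54. The latter also had the lowest intron share of the whole library.

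The last question was whether single introns were used differently, that is, whether the share of a gene's intron counts on an intron changed. A single member intron passed the test. Of 361 member introns with at least 10 counts, 122 had the mean count of 85.5 or more needed for an adjusted p. With the DEXSeq model fitted in DESeq2, 0 were called higher (0.716% of all introns) and 1 lower (1.22%, 1.94% in either direction). Without adjustment 7 of the 122 had p under 0.05, 2 higher and 5 lower, beside 10.5% of all introns (4.74% higher), and 63 were positive (50.7% of all introns). By edgeR's usage test 0 member introns were called, where 1 intron of the whole table was called higher and 1 lower.

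The intron called was intron 8 of Ndufv2 (chr17:66092727-66100977, minus strand), counted along the chromosome. Ndufv2 encodes a core subunit of complex I with an iron-sulfur cluster. The intron held 291 and 262 counts in Tdrd6+/- cells against 240 and 170 in Tdrd6-/- cells, or 21.6% and 18.7% against 16.0% and 10.2% of the intron counts of the gene. Both Tdrd6-/- samples were lower (log2 fold change of usage -0.77, SE 0.24, adjusted p = 0.089 by the DEXSeq model in DESeq2). The annotation has 2 genes on the opposite strand that overlap Ndufv2, and whether the counting used strand is not given in the sources used here. The call was lost without either Tdrd6+/- sample or without the second Tdrd6-/- sample.

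The other 6 introns past this count with p under 0.05 had adjusted p of 0.11 to 0.46 by the DEXSeq model in DESeq2. The introns with the smallest p among the rest were under the mean count needed and have no adjusted p. Intron 1 of Ndufa12 (chr10:94199131-94199949, plus strand), an accessory subunit of complex I, took 5.41% and 7.10% of the intron counts of its gene in Tdrd6+/- cells against 15.5% and 21.8% in Tdrd6-/- cells, on 36, 49, 77 and 81 counts. Intron 6 of Atp5f1 (chr3:105958899-105959147, minus strand), the b subunit of the stator, took 7.02% and 11.3% against 15.3% and 15.5%, on 38 and 55 against 93 and 90 counts, and Atp5f1 overlaps 2 genes on the opposite strand. Intron 6 of Sdhb (chr4:140976797-140977377, plus strand) took 15.2% and 14.9% against 9.61% and 5.64%, on 87 and 101 against 67 and 43 counts. In each of these introns the groups did not overlap, but they were picked by their small p, so this adds no support.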

How the data were processed

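RNA of 2 Tdrd6+/- and 2 Tdrd6-/- samples was measured, grouped by the genotype in the labels. The authors aligned the fragments to mm10 with GSNAP, used Ensembl 75 and deposited raw counts per gene and per intron that were not normalized. The counting program and its strand setting are not given in the sources used here. Depth was 43778449 to 47221554 tallied fragments per sample.

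Gene rows and summed intron counts were tested over the whole table by the quasi-likelihood test of edgeR 4.0.16 after TMM normalization and filterByExpr, in R 4.3.3. Intron usage was tested with the DEXSeq model fitted in DESeq2 1.42.0. Adjusted p-values are Benjamini-Hochberg values over each whole table at a false discovery rate of 0.1, from edgeR unless DESeq2 is named. Isoform ratios and complex shares were compared by exact permutation tests (scipy 1.17.1). Lengths and positions were taken from GENCODE M21, promoters from RefSeq, and copies from BLAST 2.17.0. Introns are numbered along the chromosome. The scripts were tested on simulated counts.

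Named genes were every member called, both genes of 8 isoform pairs, the highest and lowest of each complex, the 3 largest fold changes in each direction, the 2 introns with the smallest p in each direction and complex II. Other genes named, and the intron length classes and roles, were chosen after values were seen. The members and all lists were chosen with earlier results of these data known. The labels do not say whether the duplicates came from separate pools of mice, so p-values measure only the spread between these samples. Alternatives were other tests, normalizations, filters, thresholds and lengths, the replicate block, and leaving out each sample.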

Additional observations from a re-analysis of the deposited data

How the results depend on the processing

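The sign of the members' median log2 fold change was kept in gene and intron counts under every alternative run, and 0 members were called in gene counts with DESeq2, upper-quartile normalization, the replicate block or no further filter. Leaving out each sample in turn gave 0 to 2 members called higher in gene counts (Cox5b and Cox7a2l without the second Tdrd6+/- sample, and Cox7a2, 1 member, without the first Tdrd6-/- sample). It gave 0 to 21 members higher (0 to 474 of all genes) and 0 to 2 lower in summed introns, with a median log2 fold change of 0.054 to 0.53, and 0 to 3 introns lower in usage. The second Tdrd6-/- sample set the lowest of these medians and the first Tdrd6-/- sample, when left out, the highest count. A lone sample in a fit is assumed to vary like the other genotype.

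Summed introns had 1 member lower (Cox7b2) with upper-quartile normalization (105 of all genes) and 1 at a false discovery rate of 0.05 (103 of all genes). DESeq2 called 3 lower, adding Ndufa12, where 387 of all genes were called lower. In that test 27 of 83 members had an adjusted p. Usage had 0 introns lower with edgeR's test, which called 1 intron lower in the whole table, and 0 at a rate of 0.05, where 226 were. Same-numbered samples did not deviate together (correlation -0.10 over 16555 genes), and the labels do not say whether they share more than a number. With the replicate block 0 members were called in gene counts (239 of all genes higher and 807 lower). Summed introns had 2 members lower (186 of all genes). Usage had 3 member introns lower (in Ndufv2, Ndufa12 and Sdhb), where 517 introns of the whole table were. Intron 1 of Ndufa12, described above, had a higher share in Tdrd6-/- cells and is not among these. Crossed numbers, added after seeing the data, gave 0 members in gene counts and 0 lower in summed introns (64 of all genes). They gave 0 member introns in usage, where 81 introns of the whole table were called higher and 174 lower.

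Without a length correction, the mean log2 isoform ratio was 3.02 for Cox6b2, 7.78 for Cox7b2, 4.96 for Cox8c and -8.57 for Cox7a1, and the complex shares were 30.6%, 6.92%, 16.7%, 19.1% and 26.7% from I to V. With the median length of basic transcripts, added after seeing the data, the ratio was 3.18 for Cox6b2 and 0.49 for Ndufa4l2, and the shares of I, II, IV and V were 30.6%, 3.38%, 28.3% and 18.8%. The genotype difference of the Cox7b2 ratio ran from -0.21, without the first Tdrd6-/- sample, to 0.47. Log2 fold changes of gene counts that changed sign ran from -0.079 to 0.41 for Atp5l, -0.024 to 0.079 for Atp5s, -0.36 to 0.64 for Cox7b, -0.11 to 0.53 for Cox8a, -0.081 to 0.27 for Ndufa12 and -0.19 to 0.36 for Ndufa4l2 over the samples left out. The cause was not tested. Counts limit Cox7b, Cox7a1 and Atp5l, and introns with a mean under 85.5 have no adjusted p.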
